A study of Mus musculus with 31 samples.

Results

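Accessible chromatin inside exons and away from promoters was examined in parental NIH-3T3 cells. Of 63456 ATAC-seq peaks in the deposited list, 47192 lay more than 1 kb from the start of every annotated transcript, and 1810 of these had their summit in an annotated exon. These 1810 exonic peaks made up 2.85% of the list and 3.84% of the peaks away from a TSS. By the position of the summit, 375 lay in coding sequence, 668 in a 3′ UTR, 23 in a 5′ UTR and 744 in exons of noncoding transcripts. The annotation was GENCODE M21 on mm10, and a base that different transcripts place in different classes was given to coding sequence first, then to the 3′ UTR, the 5′ UTR and the noncoding exon.

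NIH-3T3 is a mouse embryonic fibroblast line that grows as an immortal culture. In ATAC-seq, Tn5 transposase inserts adapters where nucleosomes leave the DNA exposed, and sequenced fragments collect over accessible chromatin. The library came from 50000 cells of the parental line, which carries no TF transgene. The sample labels list no doxycycline for it, whereas the methods of the study give a 48-h treatment at 500 ng/ml for NIH-3T3 cultures without exception for it. The other 30 samples carry 1 of 13 doxycycline-inducible TFs, 2 samples each, or rtTA3G alone, 4 samples, and were not analysed here. A single library gives neither replicate error nor groups to compare, and peaks of 1 library are not replicates. Intervals are 95% Wilson intervals for shares and exact 95% Poisson intervals for densities, and they cover counting error only.

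Exons are the parts of a gene that remain in the spliced RNA. Coding exons are translated, the 3′ UTR follows the stop codon and carries signals for RNA stability, and noncoding exons belong to RNAs without a reading frame. Regulatory elements such as enhancers lie mostly in introns and between genes, but the DNA of an exon can be bound by TFs too. AP-1, a dimer of FOS and JUN proteins that is induced by serum in fibroblasts, binds the 7-base word TGACTCA, which reads TGAGTCA on the opposite strand. CTCF, an insulator protein, binds a longer motif.

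Of 10 fibroblast marker genes, 9 had a peak within 1 kb of a TSS, and Postn did not. Such a peak was present in 11788 of all 21938 protein-coding genes, or 53.7%. Among the markers of other cell types, a peak was present for Krt8 of 5 epithelial genes, for Spi1 of 5 blood genes, for Pecam1, Cdh5 and Tek of 4 endothelial genes, and for none of 4 neuronal genes. The part of other cells in the exonic peaks was not tested.

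In what follows, values in parentheses after a gene are its fragments at the summit and its fold enrichment unless another quantity is named. Single peaks show what an accessible coding exon can look like. The first set of sequences shows the AP-1 word nearest to the summit in 6 coding members with high fold enrichment, all within 50 bp of the summit. The 25 bases are given 5′ to 3′ on the coding strand from the mm10 reference, and capitals mark the word. They lie at chr17:88462864-88462888 (Foxn2, plus strand), chr8:66681465-66681489 (Npy5r, minus), chr17:43539000-43539024 (Ankrd66, minus), chr10:62401882-62401906 (Hkdc1, minus), chr14:30974369-30974393 (Nek4, plus) and chr10:43998654-43998678 (Crybg1, minus). In Nek4 the word lies in the intron beside the exon, and in the other 5 all 25 bases are coding.
Foxn2: tgtgggcagTGAGTCAgcagatgac
Npy5r: tttgtgtgtTGAGTCAtggccctct
Ankrd66: ttttgcagcTGAGTCAggccatctg
Hkdc1: ggagccctcTGAGTCAgactgcatc
Nek4: tctttccagTGAGTCAttgtgctgc
Crybg1: ttcagcggcTGAGTCAgctagggag

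In 2 further coding members, chosen after their sequences were seen, the word lies at the start of an intron and wholly within it. Introns begin with GT and often with GTGAGT, so that a splice donor followed by CA spells the AP-1 word from its second base. In each sequence the base before the capitals is the first base of the intron. They lie at chr3:54715682-54715706 (Supt20, plus strand) and chr1:14274048-14274072 (Eya1, minus).
Supt20: atcccagagTGAGTCAtgatttaaa
Eya1: ctcctatggTGAGTCActggaccat

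The depth of a peak is given here as the number of fragments over its summit, which was solved from the deposited fold enrichment and −log10 p and came out whole for all 1810 members. Fold enrichment is the ratio of that number to the number expected locally, each with 1 added. The members had a median of 25 fragments, with quartiles of 17.25 and 40 and a maximum of 337. Their median fold enrichment was 5.19, against 5.54 for intronic and 5.60 for intergenic peaks and 8.03 for the peaks within 1 kb of a TSS.

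Coding sequence held fewer summits per length than introns. Over sequence more than 1 kb from any TSS, coding sequence had 14.9 summits per Mb (13.4 to 16.5) and introns had 22.8 (22.6 to 23.1), a ratio of 0.651 (0.587 to 0.721). The 3′ UTRs had 21.7 per Mb (20.1 to 23.4), a ratio to introns of 0.948 whose interval of 0.878 to 1.02 included equal density. Noncoding exons had 27.0 per Mb (25.1 to 29.0), more than introns by a ratio of 1.18 (1.10 to 1.27). The 23 peaks in 5′ UTRs gave 34.6 per Mb with a wide interval of 21.9 to 51.9. Intergenic sequence had 16 per Mb. Bases soft-masked as repeats made up 5.02% of coding, 19.4% of 3′ UTR, 23.7% of noncoding exon and 30.5% of intron sequence. The densities count these bases, in which unique mapping lowers the signal, and were not corrected for the unequal shares.

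Distance from the promoter was taken into account in bins. Between 1 and 2 kb from a TSS the density in coding sequence was 0.698 times that in introns, between 2 and 5 kb it was 0.452 times, between 5 and 10 kb 0.703 times and between 10 and 50 kb 0.584 times. Beyond 50 kb only 12 coding peaks remained, and the ratio was 0.96. Coding sequence was thus lower than introns in each of the first 4 bins, and in the last bin the counts are too few to show a difference.

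The presence of a peak at the host gene's promoter went with intronic peaks more than with coding ones. Among genes with a peak within 1 kb of a TSS, introns had 31.3 summits per Mb, against 12.8 in genes without such a peak. In coding sequence the same split gave 16 per Mb (14.1 to 18.1) and 13.2 per Mb (11.0 to 15.7), and these intervals overlap. In 3′ UTRs the densities were 24.1 (22.0 to 26.4) and 17.5 (15.2 to 20.1), and in noncoding exons 29.6 (26.6 to 32.8) and 16 (12.5 to 20.2). Of the coding peaks 65.1% (60.1 to 69.7) and of the 3′ UTR peaks 68.0% (64.4 to 71.4) lay in a gene with a peak at a TSS. By length, such genes held 61.1% of the coding sequence and 62.9% of the 3′ UTR sequence assigned to a gene, so the interval for coding peaks includes the share given by length and that for 3′ UTR peaks lies above it.

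**Figure D1:**
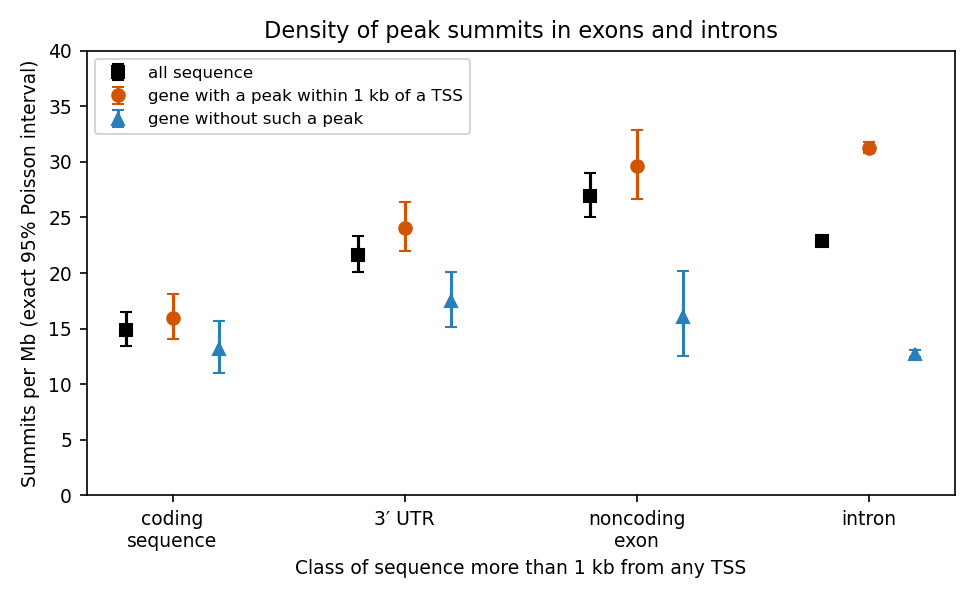
Summits per Mb (vertical axis) in coding sequence, 3′ UTRs, noncoding exons and introns more than 1 kb from any TSS, for all sequence (black squares), genes with a peak within 1 kb of a TSS (orange circles) and genes without (blue triangles); bars are exact 95% Poisson intervals. Intron density differs between the promoter groups, 31.3 against 12.8, while in coding sequence the intervals of 16 and 13.2 overlap.

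The low density was not limited to coding bases. Intron sequence within 50 bp of the nearest coding base had 14.2 summits per Mb (12.2 to 16.5), about the density of coding sequence itself. Farther away the density in introns was 17.9 per Mb at 50 to 100 bp, 19.9 at 100 to 200 bp, 21.2 at 200 to 500 bp, 22.2 at 500 to 1000 bp and 26.0 at 1000 to 2000 bp. It was highest, 26.8 per Mb (26.0 to 27.6), at 2000 to 5000 bp and was 21.9 per Mb beyond. The GC content of these intron bases ranged from 44.4% nearest the exon to 41.4% farthest away, against 50.7% in coding sequence.

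The edges of coding exons were also compared side by side, since exon and intron there share the local chromatin. With exons and introns of at least 300 bp and 100 bp to either side of 6861 edges, only 5 summits lay on the exon side and 7 on the intron side, too few to compare. With a minimum of 100 bp and 50 bp to either side, a setting added after the first count was seen, 140799 edges had 94 summits inside the exon and 92 outside. These are 13.4 per Mb (10.8 to 16.3) and 13.1 per Mb (10.5 to 16), and the share inside was 50.5% (43.4 to 57.6). At this depth no difference in density was detectable across the edge of the exon. The windows of 50 bp are narrower than the median coding peak of 247 bp, and summits were placed on whole fragments. A difference across the edge could therefore be missed.

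**Figure D2:**
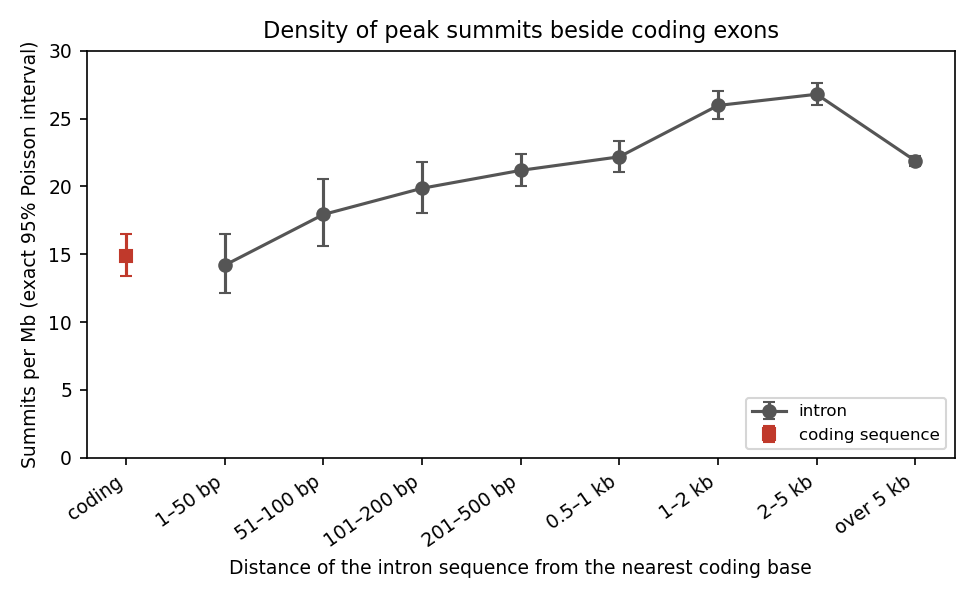
Summits per Mb (vertical axis) in coding sequence (red square) and in introns by distance from the nearest coding base (grey circles), all more than 1 kb from any TSS; bars are exact 95% Poisson intervals. The first 50 bp of intron, at 14.2 per Mb, lie level with coding sequence at 14.9, and the density reaches 26.8 at 2 to 5 kb.

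Coding peaks were slightly weaker than noncoding exon and intronic peaks, and close to 3′ UTR peaks. Their median fold enrichment was 4.87 with quartiles of 3.66 and 6.83, against 5.05 in 3′ UTRs and 5.52 in noncoding exons, and 5.54 in introns with quartiles of 4.16 and 8.18. A fold enrichment of at least 10 was reached by 11.7% (8.86 to 15.4) of coding, 11.1% (8.92 to 13.7) of 3′ UTR, 14.9% of noncoding exon and 15.3% of intronic peaks. The quartiles of all classes overlap widely.

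The median exon under a coding peak was 217 bp long, shorter than the median coding peak of 247 bp, and peaks fell into 3 kinds by how they sat on it. In 112 peaks (29.9%) the peak covered the whole exon, in 151 it crossed 1 edge and in 112 it lay inside the exon. Fold enrichment had a median of 6.43 among peaks that covered the exon, 4.73 among those that crossed an edge and 3.68 among those inside it. The median widths were 380, 207 and 180.5 bp and the median exon lengths 129.5, 202 and 1615 bp, so this grouping sorts peaks by width and exon length as well. Edges of peak and exon matched within 10 bp at both ends in 2 coding peaks, so coding peaks did not take the outline of the exon. In 3′ UTRs, by contrast, 601 of 668 peaks lay inside the exon, whose median length was 2721.5 bp.

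The AP-1 word was less frequent at coding summits than at intronic ones pooled over all distances from coding sequence. It was present within 50 bp of the summit in 68 of 375 coding peaks, or 18.1% (14.6 to 22.3), and in 27.4% (26.8 to 28.0) of intronic peaks. The share was 23.2% (20.2 to 26.6) in 3′ UTRs, 25.5% (22.5 to 28.8) in noncoding exons and 25.5% between genes. In windows of the same length placed 500 bp to either side of the summit it was 0.933% for coding peaks and 1.81% for intronic ones. Coding peaks with the word had a median fold enrichment of 7.12 and those without it 4.59.

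The word at a coding summit was often not in the coding sequence. Of the 68 words nearest to a coding summit, 42 lay wholly in coding sequence, 17 in an intron, 2 across a border and 7 in another class. In 3′ UTRs 152 of 155 lay in the 3′ UTR. Among coding peaks the share with the word was 25% (17.9 to 33.8) where the peak covered the exon, 19.2% (13.7 to 26.2) where it crossed an edge and 9.82% (5.57 to 16.7) where it lay inside. In coding peaks on exons of at least 1000 bp the share was 14.4% (8.94 to 22.4), against 22.9% (19.7 to 26.4) in 3′ UTR peaks on exons of that length.

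**Figure D3:**
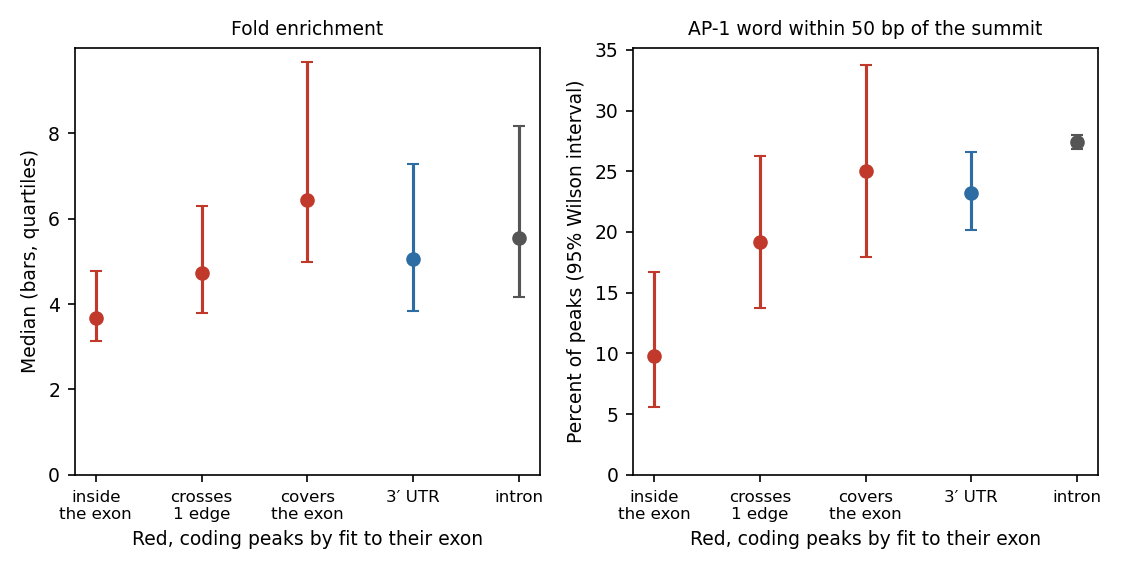
Left, median fold enrichment with quartiles; right, percent of peaks with the AP-1 word within 50 bp of the summit with 95% Wilson intervals, for coding peaks inside, across 1 edge of or covering their exon (red), 3′ UTR peaks (blue) and intronic peaks (grey). Coding peaks inside an exon are lowest in both, with a median of 3.68 and a share of 9.82%.

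**Figure D4:**
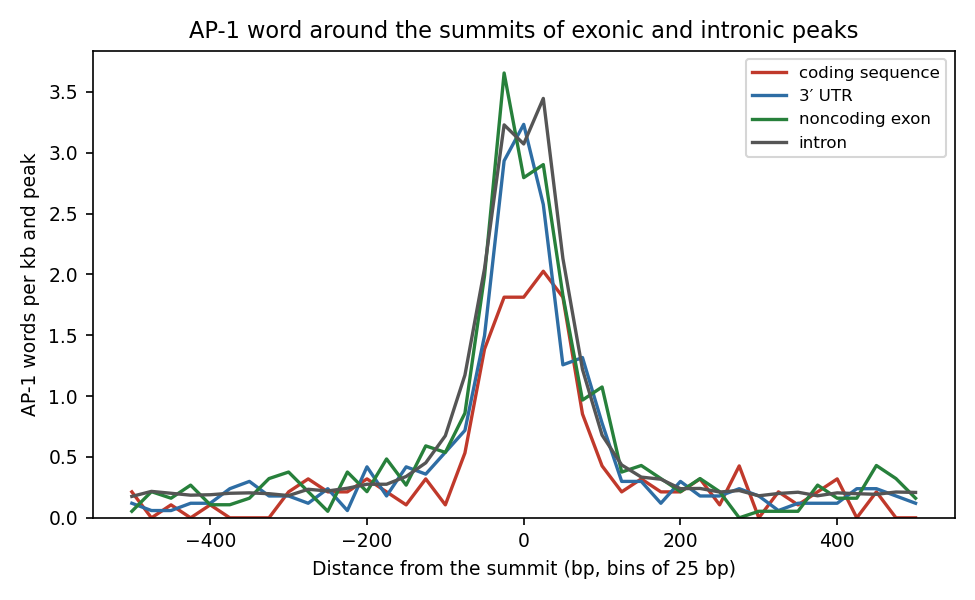
AP-1 words per kb and peak (vertical axis) by distance from the summit in bins of 25 bp, for coding, 3′ UTR, noncoding exon and intronic peaks. All 4 lines rise around the summit; in the central bin the coding line stands at 1.81, the 3′ UTR line at 3.23 and the intron line at 3.07.

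Counting from the words rather than the peaks takes the content of each class into account. Of 2968 AP-1 words in coding sequence more than 1 kb from a TSS, 95 lay under a peak, or 3.20% (2.63 to 3.90). The share was 5.83% (5.22 to 6.52) in 3′ UTRs, 7.65% (6.94 to 8.42) in noncoding exons, 6.93% (6.81 to 7.05) in introns and 4.98% between genes. In introns within 50 bp of a coding base it was 3.75% (3.07 to 4.57) and at 2000 to 5000 bp it was 8.13%, so the words followed the same gradient as the summits. Coding sequence held 118 AP-1 words per Mb and introns 173, so both the number of words and the share under a peak were lower in coding sequence.

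The word begins with TGA, which is a stop codon when it falls in the reading frame, so it can sit in coding sequence only in the remaining frames. In the other two frames, TGACTCA on the coding strand lay under a peak in 24 of 742 and 29 of 908 cases, and TGAGTCA in 10 of 520 and 27 of 714. These shares ran from 1.92% (1.05 to 3.50) to 3.78% (2.61 to 5.45), and their intervals overlap.

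Splice donors that spell the AP-1 word were counted over all coding transcripts, after the word had been seen at the donors of Supt20 and Eya1. Of 132663 donors more than 1 kb from a TSS, 726 lay under a peak, or 0.547% (0.509 to 0.588). Of the 723 donors that read GTGAGTCA, 40 lay under a peak, or 5.53% (4.09 to 7.45). At 12 of the 68 coding summits with the word, it was such a donor. Among them the fold enrichment was 4.4 at Cabp4, a calcium-binding protein of photoreceptors, 11.5 at Eya1, a transcriptional coactivator and phosphatase, and 12.5 at Supt20, a subunit of the SAGA coactivator complex.

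The CTCF motif was at few exonic summits. Its share was higher in 3′ UTR peaks than in intronic ones with intervals apart, while the intervals for 3′ UTRs and coding sequence overlap. Per Mb, 3′ UTRs held 4.09 CTCF motifs, coding sequence 2.58 and introns 2.65. For the share of motifs under a peak, the intervals of all 3 classes overlap. The motif lay within 50 bp of the summit in 4.19% (2.92 to 5.99) of 3′ UTR peaks, 2.13% (1.08 to 4.15) of coding peaks and 2.1% (1.92 to 2.29) of intronic peaks. Of 126 CTCF motifs in 3′ UTRs, 36 lay under a peak, or 28.6% (21.4 to 37.0), against 15.4% (8.58 to 26.1) of 65 in coding sequence and 22.8% (21.2 to 24.4) in introns.

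The sequence GGGCGG, a GC box bound by SP1 and its relatives, was present at 8% (5.66 to 11.2) of coding summits and 3.37% (3.15 to 3.61) of intronic ones. As a share of the words under a peak the order turned, with 1.76% (1.47 to 2.1) of 6761 GC boxes in coding sequence and 2.72% (2.62 to 2.82) in introns. Coding sequence held 268 GC boxes per Mb and introns 98.4.

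CpG-rich peaks were more frequent in coding sequence than in the other large classes. A CpG ratio of at least 0.6 with a GC content of at least 50% around the summit, the usual mark of a CpG island, was met by 41 coding peaks, or 10.9% (8.16 to 14.5). It was met by 10 of 668 3′ UTR peaks (1.5%), 15 of 744 noncoding exon peaks (2.02%) and 0.535% of intronic peaks. Coding sequence as a whole was 50.7% GC, against 42.6% in 3′ UTRs, 43.2% in noncoding exons and 42.1% in introns. How much of each class meets the criterion without a peak was not counted, so these shares are not corrected for content. Of the 41 coding peaks, 22 began within 2 kb of a TSS and 1 held the AP-1 word. Examples are Synpo2l, a relative of the actin-binding protein synaptopodin, with 85 fragments and a fold enrichment of 12.7, Espn, which encodes the actin bundler espin, with 63 fragments and 11.7, and Angptl6, an angiopoietin-like secreted protein, with 93 fragments and 11.7. Among regulators of development, Foxc1 (35 fragments, 5.61), Foxc2 (18 fragments, 2.86) and Hoxb8 (26 fragments, 4.08) had peaks of this kind in their coding sequence, each within 2 kb of a TSS.

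The strongest coding peak lay at Itga8, the integrin alpha 8 subunit, at chr2:12255593-12256268. Its summit lay in exon 6 of 30 under 96 fragments where 4.21 were expected, a fold enrichment of 18.6. The exon is only 46 bp long and made up 6.80% of the peak, so most of this peak lay in introns. The second was at Foxn2, a forkhead TF, at chr17:88462599-88463189 in exon 2 of 6, with 94 fragments and a fold enrichment of 17.2. Of this peak 80.7% was exon, and the reference holds 1 further match of 478 bp at 91.8% identity to its sequence.

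Peaks wholly inside coding exons included Npy5r, a receptor for neuropeptide Y, with 83 fragments and a fold enrichment of 15.7. Its peak lay in the second and last exon, and the gene had no peak at a TSS. Crybg1, a protein with crystallin domains, had 62 fragments and a fold enrichment of 13.2 in an exon of 2296 bp, also without a peak at a TSS. Both carry the AP-1 word in coding bases. Hkdc1, a protein of the hexokinase family, had 90 fragments and a fold enrichment of 14.2, and its AP-1 word lies at the summit itself. The peak at Hkdc1 lay 1018 bp from the nearest TSS and was not confined to the exon, which made up 28.6% of it. The rest of the 8 strongest were Ankrd66, an ankyrin repeat protein (85 fragments, 15.6), M1ap, a meiosis protein (fold enrichment 15.1), and Nek4, a kinase of the NIMA family (77 fragments, 13.9). The exon made up 44.9% of the peak at Ankrd66, 18.3% at M1ap and 21.1% at Nek4.

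The strongest of all exonic peaks lay in the 3′ UTR of Lars2, the leucyl-tRNA synthetase of mitochondria, at chr9:123461819-123462183. It had 337 fragments where 8.01 were expected and a fold enrichment of 37.5, and the next exonic peak reached 20.5. The 365-bp peak held no soft-masked base. Its sequence had 8 matches of at least 100 bp and at least 90% identity elsewhere in the reference, the longest of 226 bp at 91.6% and the closest at 98.8%. It matched neither mitochondrial DNA nor the ribosomal RNA gene of the reference at an e-value of 1e-10. The part of these copies in the value was not tested.

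The other leading 3′ UTR peaks had fold enrichments between 15.9 and 18.8. Among them were Gnaq, the alpha subunit of the G protein Gq, with 98 fragments and 17.3, and Pde6h, an inhibitory subunit of the cone phosphodiesterase, with 136 fragments and 17.6. S100pbp, a binding partner of S100P, had 147 fragments where 8.30 were expected and a fold enrichment of 15.9. Olfr457, an olfactory receptor (84 fragments, 18.3), Vmn1r58, a vomeronasal receptor (67 fragments, 16.1), Tmem196, a membrane protein (75 fragments, 16.5), and 1700057G04Rik (103 fragments, 18.8) also stood high, and none of these 4 genes had a peak within 1 kb of a TSS. Of these 8 peaks, only that of Gnaq held the AP-1 word within 50 bp of its summit. The peak at Vmn1r58 had 4 matches elsewhere, the longest of 532 bp at 91.2% identity. That at Olfr457 lay 1046 bp from the nearest TSS, just outside the limit of 1 kb. At 1700057G04Rik the exon is 139 bp long and made up 19.3% of the peak.

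Positions in the 3′ UTR were measured along its genomic span, which includes introns where the 3′ UTR is split over exons. The summits lay a median of 1157.5 bp from the start of this span and 947 bp from its end. Divided into 3 parts of equal length, the spans had 178 summits in the part nearest the stop codon, 235 in the middle and 255 in the part nearest the end. Bases within 1 kb of a TSS were not removed from these parts, so the counts are not densities. The last exon of the transcript held 96.6% of them.

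Noncoding exons joined several kinds of annotation. Of the 744 peaks, 336 lay in long noncoding RNA genes, 283 in noncoding transcripts of coding genes, 98 in genes marked TEC, which await experimental support, and 27 in pseudogenes. Retained-intron transcripts, whose exon holds intron sequence of other transcripts, accounted for 239. Median fold enrichment was 6.04 in long noncoding RNA genes, 5.06 in noncoding transcripts of coding genes, 5.33 in TEC genes and 4.99 in pseudogenes. The AP-1 word was present in 27.4% (22.9 to 32.4), 23.3% (18.8 to 28.6), 27.6% (19.7 to 37.1) and 18.5% (8.18 to 36.7) of them, intervals that overlap.

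The strongest noncoding exon peak lay in Clca4c-ps, a pseudogene of the chloride channel accessory family, with 78 fragments and a fold enrichment of 20.5. Its sequence had 15 matches elsewhere of at least 100 bp, the longest of 105 bp at 90.5% identity. It was followed by the lincRNA Gm32624 with 122 fragments and 19.7, and by a retained intron of Vps35l, an endosomal recycling protein, with 143 fragments and 18.8. The lincRNAs Gm14120 (114 fragments, 17.8) and 4930556G22Rik (115 fragments, 16.6) and a retained intron of Eprs, the glutamyl-prolyl-tRNA synthetase (76 fragments, 16.7), completed the leading 6. In 5′ UTRs the highest values were 16.3 at Vmn1r45, a vomeronasal receptor, whose peak sequence had 1 match elsewhere of 566 bp at 92.6% identity, 15.9 at Nup160, a nuclear pore protein, 15.6 at Zbtb20, a zinc finger TF, and 14.2 at Sf3b5, a splicing factor subunit. The peaks at Nup160 and Sf3b5 were CpG-rich, with CpG ratios of 1.03 and 0.996.

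**Figure D5:**
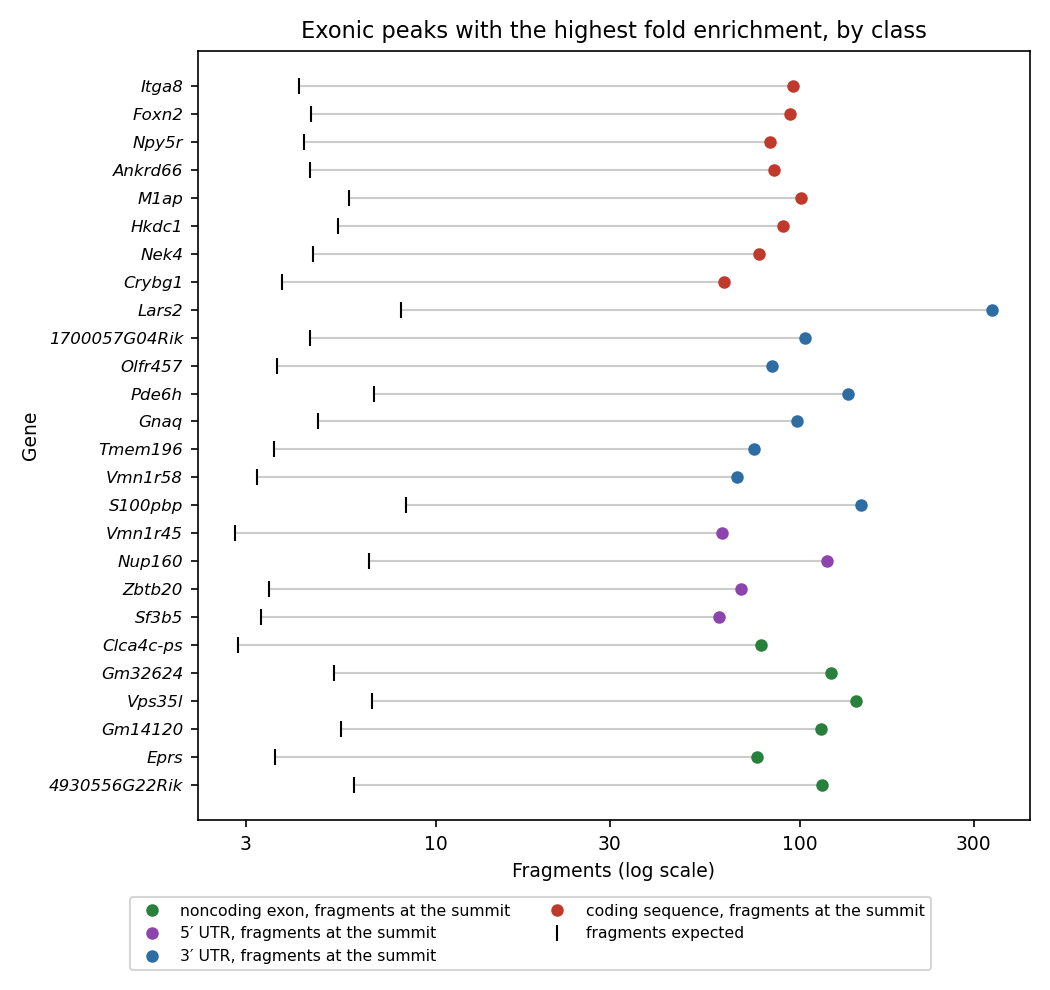
Fragments at the summit (coloured circles, by class) and fragments expected locally (black ticks) on a log axis, for the exonic peaks with the highest fold enrichment in each class, 1 gene per line. Fragments run from 60 at Sf3b5 to 147 at S100pbp in all peaks but that of Lars2, which has 337.

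Few genes held more than 1 exonic peak in coding sequence or a UTR. Of 997 genes with any, 932 had 1, 61 had 2 and 4 had 3. The 4 genes were Frrs1, a ferric reductase, Csrnp3, a nuclear protein, E130308A19Rik, and Rgs5, a regulator of G protein signalling, and all their peaks lay in 3′ UTRs. The 3 peaks of Frrs1 had 32, 112 and 71 fragments and fold enrichments of 3.61, 12.5 and 7.96. Those of Csrnp3 had 25, 57 and 72 fragments, within a last exon of 9576 bp. Zbtb20 held a coding peak with 71 fragments and a fold enrichment of 12.1 beside that in its 5′ UTR.

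Gene lists were described by the share of their genes with an exonic peak, and the lists were drawn up with earlier results of these data known. Of a list of 48 genes of the extracellular matrix and cytoskeleton, which fibroblasts use to build and hold their surroundings, 11 had a peak in coding sequence or a UTR, or 22.9% (13.3 to 36.5), against 995 of 21938 protein-coding genes, or 4.54%. Per length their exons had 47.7 summits per Mb (23.8 to 85.4), against 18.8 (17.7 to 19.96) in all protein-coding genes. Their introns had 64.1 per Mb (54.8 to 74.4), against 23.0, so both exons and introns of this list held more summits per length. Matrix families chosen by symbol stood near the share of all genes, with 2 of 44 collagens (4.55%) and 2 of 58 ADAM and ADAMTS proteases (3.45%). A peak at a TSS was present in 42 of the 48 listed genes (87.5%), against 53.7% of all protein-coding genes.

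The matrix and cytoskeleton members with a coding peak were Vcl, which encodes the adhesion protein vinculin (38 fragments, 10.1), Hspg2, the proteoglycan perlecan (44 fragments, 9.10), Mmp14, a membrane-bound matrix protease (86 fragments, 8.79), Ltbp2, a protein of elastic microfibrils (33 fragments, 6.21), Plec, the cytolinker plectin (82 fragments, 5.96), Loxl1, a lysyl oxidase (26 fragments, 3.67), and Ahnak, a scaffold protein (15 fragments, 2.87). Those with a 3′ UTR peak included Loxl2, also a lysyl oxidase (26 fragments, 7.09), Acta2, smooth muscle actin (19 fragments, 4.56), and Zyx, the adhesion protein zyxin (25 fragments, 3.85). The AP-1 word was within 50 bp of the summit at Vcl.

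The other families had from 0 to 16 genes with an exonic peak, to be read beside the 4.54% of all protein-coding genes. They were 16 of 365 C2H2 zinc finger genes (4.38%), 4 of 44 forkhead genes (9.09%, 3.59 to 21.2), 3 of 31 integrins (9.68%, 3.35 to 24.9), 1 of 11 laminins (9.09%, 1.62 to 37.7), 1 of 19 SOX genes (5.26%) and 1 of 39 HOX genes (2.56%). All of these intervals include 4.54%. None was found in 57 clustered protocadherins, 49 keratins or 23 cadherins, where a limit of 3 counts, used here in place of the Wilson interval, allows shares of up to 5.26%, 6.12% and 13.0%. Olfactory receptor genes, which are used mainly by olfactory neurons, had 5.38 exonic summits per Mb (2.69 to 9.63) and 3.63 (1.57 to 7.15) in their introns, and 8 of their 11 peaks lay in 3′ UTRs.

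The limit of 1 kb set the number of members. Between 500 and 1000 bp from a TSS a further 313 exonic peaks lay outside the rule, with a median fold enrichment of 4.41, and between 1000 and 1500 bp 232 members lay just within it, with a median of 4.73.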

How the data were processed

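For the parental NIH-3T3 library, the authors aligned paired-end ATAC-seq reads to mm10 with STAR (2.5.3a, per the submitters' processing notes), kept unique alignments to the autosomes, X and Y, and removed duplicates with Picard. Peaks were obtained with MACS2 (2.1.1.20160309) on whole fragments, and no shift for the Tn5 cut is described. Filters against blacklisted regions and input are stated for ChIP-seq and referred to for ATAC-seq. Each deposited peak has a fold enrichment, a ratio of fragments at the summit to the local expectation. The deposited −log10 p and −log10 q values come from a Poisson test of the summit, and the deposited score is the −log10 q on another scale. Whole fragments limit how narrowly a summit is placed, and unique mapping lowers the signal over repeated sequence.

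Summits were assigned with GENCODE M21. A peak was kept when its interval lay more than 1 kb from every TSS. Densities divide summits by the bases of the class more than 1 kb from any TSS. The fragment number was solved from fold enrichment and −log10 p to within 0.02 of a whole number, after the solver had been tested on simulated data. The read number of the library is not given in the sources used here. Words were sought on both strands in windows reaching 50 bp to either side of the summit: TGACTCA for AP-1, GGGCGG for the GC box and the CTCF motif by its name. Words for CRE, TEAD, RUNX, ETS, the E-box and NFI were sought too, and they appear in the closing section. Named were the 8 peaks with the highest fold enrichment in coding sequence and in 3′ UTRs, 6 in noncoding exons, 4 in 5′ UTRs, the genes with the most exonic peaks, and members of gene lists. Some items that these rules would name are not reported here. CpG-rich and splice donor examples were chosen after their values were seen. The members and lists were chosen with earlier results of these data known. Alternatives were other distances to the TSS, q and enrichment thresholds, windows, overlaps and transcript sets. Near-identical copies were sought with BLAST 2.17.0. Scripts ran under Python 3.11.15 with pandas 2.3.3, NumPy 2.4.6, matplotlib 3.10.9 and SciPy 1.17.1. Nothing was compared between samples, and no test was run.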

Additional observations from a re-analysis of the deposited data

How the results depend on the processing

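No paired analysis was possible because the peak list comes from 1 library. Of 52 alternative values, 32 stayed within the main value's interval (or within 1.5 times, for the number of peaks) and 20 did not. The number of exonic peaks was 908 at over 5 kb from a TSS and 938 at a fold enrichment of at least 5. The share in coding sequence was 13.0% with noncoding exons counted first, 18.3% at a fold enrichment of at least 5 and 28.0% with basic transcripts. At that enrichment the ratio to introns was 0.515 for coding sequence and 0.828 for 3′ UTRs, and at over 5 kb it was 1.31 for noncoding exons. At a q of 1e-05 the median fold enrichment was 5.78 for coding, 5.78 for 3′ UTR and 6.49 for noncoding exon peaks, and at over 5 kb it was 5.32 for 3′ UTRs. The share with the AP-1 word was 7.20%, 12.4% and 12.6% within 25 bp of the summit and 25.6%, 30.5% and 34.9% within 100 bp, in that order of classes, beside 14.1% and 37.8% for introns, and 22.4% for coding peaks at a q of 1e-05. The share of summits inside exon edges was 71.4% of only 7 at 50 bp. The shorter exons were an alternative added after seeing the data. In every setting tried for these values, coding sequence had a lower density and a lower share with the AP-1 word than introns pooled over all distances from coding sequence. No exonic peak had fewer than 10 fragments, so weaker sites are outside the list, and the read number is unknown.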

Other observations

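The density of exonic peaks differed between chromosomes, and the order of the chromosomes was not compared with that of intronic peaks. On the 19 autosomes the exonic density ranged from 15.8 to 28.1 summits per Mb of exon more than 1 kb from a TSS, and the intronic density from 17.2 to 32.0 per Mb of intron. Chromosome X had 20 exonic peaks, or 6.93 per Mb (4.24 to 10.7), and 7.92 per Mb in introns. Chromosome Y had none in 0.621 Mb of exon.

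Of 6 other words sought, the shares under a peak were lower in coding sequence than in introns with intervals apart for CRE, ETS, E-box and RUNX, and with overlapping intervals for TEAD, at 1.14% (0.681 to 1.91) against 1.63% (1.52 to 1.74), and for NFI, with 0 of 14 coding cases. The ETS word CCGGAAG lay under a peak in 0.755% (0.526 to 1.08) of 3839 coding cases and 1.84% (1.69 to 2.01) of intronic ones. The E-box CACGTG did so in 0.551% (0.371 to 0.819) and 1.19% (1.13 to 1.25), and the RUNX word TGTGGTT in 0.643% (0.446 to 0.928) and 1.30% (1.26 to 1.35). Of the 54 exonic peaks with more than 50% soft-masked bases the median fold enrichment was 4.19, against 5.24 for the others.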
